A study of Mus musculus with 9 samples.

Results

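Cyclin-dependent kinase inhibitors are small proteins that hold back the kinases driving the cell cycle. The 8 genes described here are 7 of these inhibitors, Cdkn2a, Cdkn2b, Cdkn2c, Cdkn2d, Cdkn1a, Cdkn1b and Cdkn1c, and Mtap, a methionine salvage enzyme that is no cell cycle inhibitor but lies beside Cdkn2a. They are 8 of the 49671 genes in the count tables. They were chosen by their measured CPM (read counts scaled to library size) in these libraries, with Cdkn2a and Cdkn2b high in every culture, close to lost in the tumours of the line with intact CD49b and retained in part in the tumours of its knockout. Their differences between groups are therefore given as descriptions with no test.

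RNA was sequenced in bulk from 2 mouse pancreatic cancer cell lines, KPC49bKO (KO here), labelled as a CD49b knockout, and KPCWT (WT here), its wild-type counterpart. CD49b is the integrin alpha 2 subunit encoded by Itga2, a collagen receptor. The 4 groups were KO cultures (2 libraries), WT cultures (2), KO tumours (2) and WT tumours (3). Cultures were taken at near confluence in serum-containing medium. Tumours had grown under the skin of the flank of syngeneic C57BL/6 mice and were dissociated with enzymes before RNA extraction, so they hold host cells as well. Each genotype is represented by 1 line; the labels give neither the number of clones behind it nor the other alleles of the KPC lines. The batch tag in the labels equals the setting, culture or tumour, so a difference between tumours and cultures cannot be told apart from batch, and the comparison of KO with WT was made within each setting.

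The INK4 inhibitors (Cdkn2a, Cdkn2b, Cdkn2c, Cdkn2d) bind CDK4 and CDK6 and keep them from pairing with D cyclins, which leaves the RB proteins active and E2F targets silent. The CIP/KIP inhibitors (Cdkn1a, Cdkn1b, Cdkn1c) bind cyclin and kinase complexes, with CDK2 as the classical target. Cdkn2a encodes 2 unrelated proteins from separate first exons, the INK4 protein p16Ink4a and p19Arf, which restrains MDM2 and so stabilises p53. The Cdkn2a and Cdkn2b locus is often deleted, silenced or repressed by Polycomb proteins in pancreatic and other cancers, and MTAP is often lost with it in human tumours. Primary cells placed in culture commonly switch the locus on. The deposited counts are per gene and do not separate p16Ink4a from p19Arf. In the annotation Mtap, Cdkn1a and Cdkn1c each overlap a gene model on the other strand, as Klhl9 and Focad near the locus do, and how the counting used strand is not given in the sources used here.

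On mouse chromosome 4 (GRCm38) the 3 genes lie in the order Mtap (chr4:89137122-89181081, plus strand), Cdkn2a (chr4:89274471-89294653, minus strand) and Cdkn2b (chr4:89306299-89311039, minus strand). Cdkn2b ends 11646 bases upstream of Cdkn2a, and the 3′ ends of Mtap and Cdkn2a are 93390 bases apart. The sequences below are the 250 bases before each of the 4 starts, shown because Cdkn2a and Cdkn2b differed between groups together while Mtap differed far less. They are taken from RefSeq (GRCm38.p6), whose Mtap start lies 248 bases inside the gene positions given above, so that window covers sequence after the annotated gene start. The table held starts of 7 of the 8 genes, Cdkn1c being the other. The upstream Cdkn2a start is that of the p19Arf transcript and the downstream one that of p16Ink4a. Capitals mark the GC box GGGCGG and the cAMP response element TGACGTCA, read on both strands.
Cdkn2a upstream start: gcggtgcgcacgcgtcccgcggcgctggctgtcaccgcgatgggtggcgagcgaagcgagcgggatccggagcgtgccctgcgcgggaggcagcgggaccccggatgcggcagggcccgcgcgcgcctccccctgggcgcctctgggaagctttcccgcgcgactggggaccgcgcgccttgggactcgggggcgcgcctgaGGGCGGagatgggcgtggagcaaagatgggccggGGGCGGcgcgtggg
Cdkn2a downstream start: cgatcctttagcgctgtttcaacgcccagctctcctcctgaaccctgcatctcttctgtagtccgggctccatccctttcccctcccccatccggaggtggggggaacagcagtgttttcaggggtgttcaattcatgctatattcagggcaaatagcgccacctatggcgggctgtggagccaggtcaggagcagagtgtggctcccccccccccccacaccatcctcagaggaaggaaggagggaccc
Cdkn2b: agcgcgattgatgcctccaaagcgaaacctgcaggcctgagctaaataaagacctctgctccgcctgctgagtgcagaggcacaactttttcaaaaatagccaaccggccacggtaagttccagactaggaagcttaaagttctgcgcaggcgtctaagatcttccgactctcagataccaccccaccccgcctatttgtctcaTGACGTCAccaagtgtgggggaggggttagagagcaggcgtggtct
Mtap: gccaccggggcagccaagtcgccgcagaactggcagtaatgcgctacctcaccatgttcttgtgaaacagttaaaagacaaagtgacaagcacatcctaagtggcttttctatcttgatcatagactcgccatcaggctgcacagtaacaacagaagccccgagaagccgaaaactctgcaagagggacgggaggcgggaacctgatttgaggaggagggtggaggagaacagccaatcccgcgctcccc
These are chr4:89294620-89294869, chr4:89282193-89282442 and chr4:89311033-89311282 on the minus strand for Cdkn2a (upstream, then downstream) and Cdkn2b, and chr4:89137120-89137369 on the plus strand for Mtap. The upstream Cdkn2a start is 78.4% G and C with 40 CpG dinucleotides, a number reached by 1.31% of the 32851 promoters in the table, whose median is 6. The downstream Cdkn2a start has 7 CpG, Cdkn2b has 12 and Mtap has 11. The upstream Cdkn2a start holds 2 GC boxes, a motif found in 32.7% of promoters of the same length, and the other 3 hold none. Cdkn2b holds 1 cAMP response element, a motif found in 1.5% of promoters. None of the 4 windows holds the E-box CACGTG (6% of promoters), the E2F core TTTCGCGC (0.3%), the TATA box TATAAA (12.4%) or the AP-1 site TGACTCA (4.5%). No searched motif overlapped another in them. These matches describe the letters in the windows and show no binding.

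Total counts ran from 16032912 to 21247023 per library. Itga2 itself was lower but not absent in the KO libraries, at 96.6 and 104 CPM in KO cultures against 168 and 135 in WT cultures, and at 44.6 and 64.1 CPM in KO tumours against 119, 144 and 137 in WT tumours. The log2 fold change was -0.64 ± 0.17 (SE) in culture (adjusted p = 0.0135) and -1.32 ± 0.18 in tumours (adjusted p = 0.00602). The culture call was lost without KO culture 1 or WT culture 1 and in 1 fit of all 9 libraries, and the value lay between -0.80 and -0.45 over the cultures left out. The counts do not show which part of the gene was edited. Keratin genes and Cdh1 mark the epithelial cancer cells, and their summed level with Epcam was 11191 and 10841 CPM in KO cultures, 11002 and 12072 in WT cultures, 10006 and 7783 in KO tumours and 5975, 5572 and 4774 in WT tumours. Epcam alone was at 0 and 0.0695 CPM in KO cultures and at 3.54 and 3.46 in WT cultures. In the tumours all 10 leukocyte, all 6 endothelial and all 7 fibroblast markers listed had counts. The fibroblast sum was 389 and 616 CPM in KO tumours against 1588, 1072 and 2958 in WT tumours. The leukocyte sum was 126 and 245 CPM in KO tumours against 114, 118 and 147 in WT tumours, and the endothelial sum was 43.3 and 79.1 CPM in KO tumours against 80.4, 60.8 and 149.6 in WT tumours. In the cultures the fibroblast, leukocyte and endothelial sums reached at most 2.59, 12.3 and 21.3 CPM. WT tumours 1 and 2 stood closer together than any other replicates, with a chi-square per gene of 6.00 against 23.0 or more in other pairs.

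Cdkn2a overlapped between the cultures of both lines, was close to lost in WT tumours and lay between in KO tumours. Its level was 152 and 159 CPM (on 1 TMM scale over the 9 libraries) in KO cultures against 138 and 170.0 in WT cultures, which overlap. It was 76.2 and 17.8 CPM in KO tumours against 4.04, 3.32 and 4.43 in WT tumours, so the lower KO tumour still lay above the highest WT tumour. Its mean was 47.0 ± 41.3 in KO tumours against 3.93 ± 0.563 in WT tumours (SD, n = 2 and 3). KO over WT, the log2 fold change was -0.03 ± 0.16 in culture and 3.57 ± 0.57 in tumours (SE). The tumour value rests on KO tumour 1 for its size: it was 2.15 without that library and 4.29 without KO tumour 3, and lay between 3.18 and 3.58 under other scalings, tools and prior counts. Against the cultures of its own line, Cdkn2a was 3.32-fold lower in KO tumours (log2 fold change -1.73 ± 0.46, and -3.12 without KO tumour 1) and 39.1-fold lower in WT tumours (-5.29 ± 0.47). In bulk RNA, fewer cells of a type and less RNA per cell cannot be told apart.

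Cdkn2b, which encodes p15Ink4b, a CDK4 and CDK6 inhibitor known as a target of TGF-beta signalling, followed the same order. It was at 94.5 and 111 CPM in KO cultures against 80.1 and 93.3 in WT cultures. It was at 42.0 and 8.92 CPM in KO tumours against 2.33, 2.61 and 3.15 in WT tumours, again without overlap. As log2 fold changes, KO over WT was 0.20 ± 0.16 in culture and 3.23 ± 0.61 in tumours, and the tumour value was 1.70 without KO tumour 1 and 3.97 without KO tumour 3. Both KO cultures lay just above both WT cultures, and the groups overlapped when libraries were scaled by RLE. Against its own cultures it was 4.04-fold lower in KO tumours (log2 fold change -2.02 ± 0.49, and -3.52 without KO tumour 1) and 31.9-fold lower in WT tumours (-5.00 ± 0.49).

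**Figure D1:**
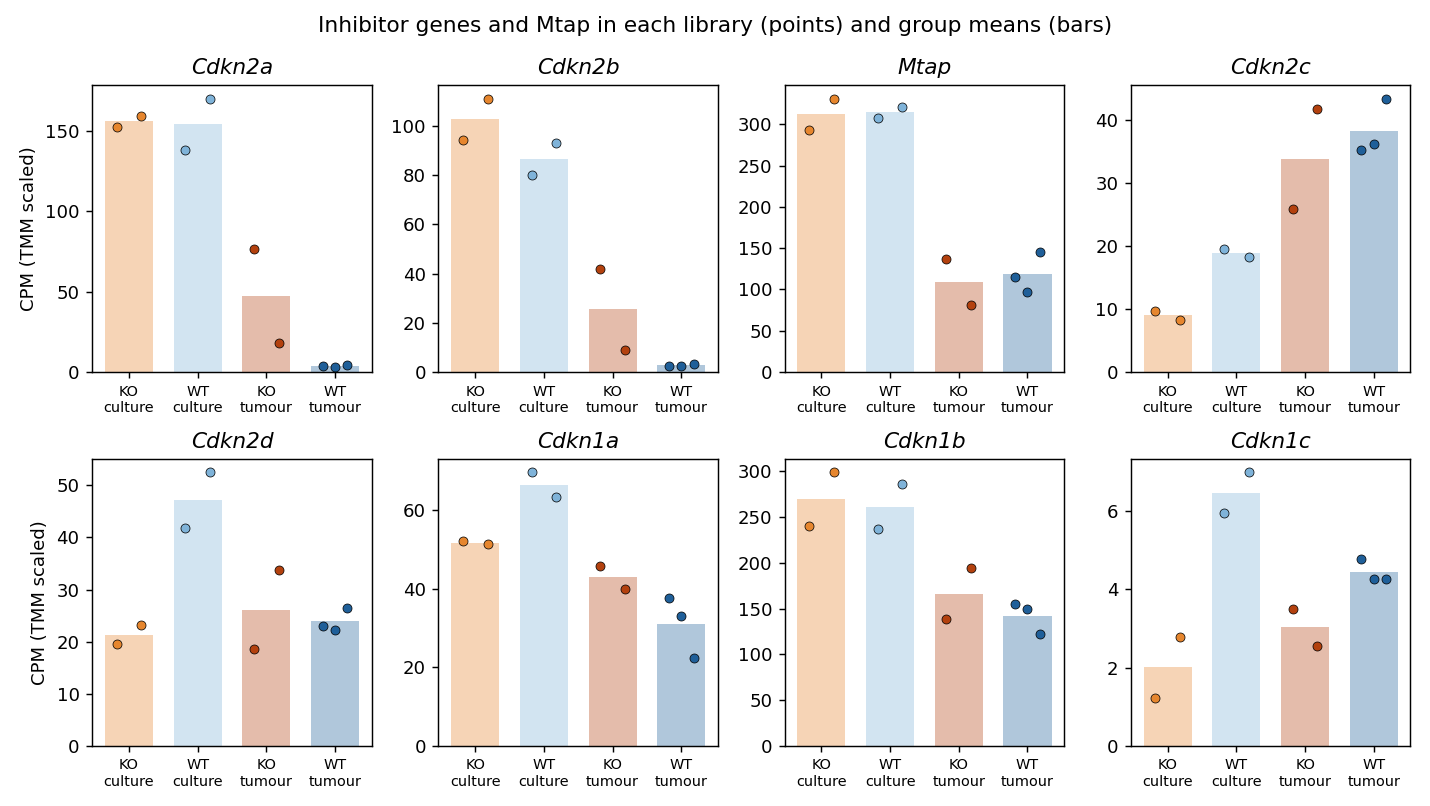
Level of each gene in CPM (y axis, starting at 0) in KO cultures, WT cultures, KO tumours and WT tumours; points are libraries and bars are group means. Cdkn2a and Cdkn2b stand higher in both KO tumours than in WT tumours, which lie at 3.32 to 4.43 and 2.33 to 3.15 CPM, while Cdkn2c is higher in tumours than in cultures of either line.

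The ratio of the 2 genes to each other varied less than their levels, from 1.27 to 1.99 Cdkn2a counts per Cdkn2b count. Of the counts of both genes together, Cdkn2a held 61.7% and 58.9% in KO cultures against 63.3% and 64.6% in WT cultures. It held 64.5% and 66.6% in KO tumours against 63.4%, 55.9% and 58.4% in WT tumours, with exact binomial 95% intervals as wide as 46.5 to 65.1% in WT tumour 2, where the 2 genes had 66 and 52 counts. The share was lower in both KO cultures than in both WT cultures. The interval of KO culture 2, 57.3 to 60.5%, lay below those of WT culture 1, 61.7 to 64.9%, and WT culture 2, 63.1 to 66.1%. Across the 9 libraries the Pearson correlation of the 2 genes on the log2(CPM + 1) scale was 0.997. This describes libraries that fall into separate levels and share their scaling. The plot of paired counts shows both genes close to 1 line from WT tumours to cultures.

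**Figure D2:**
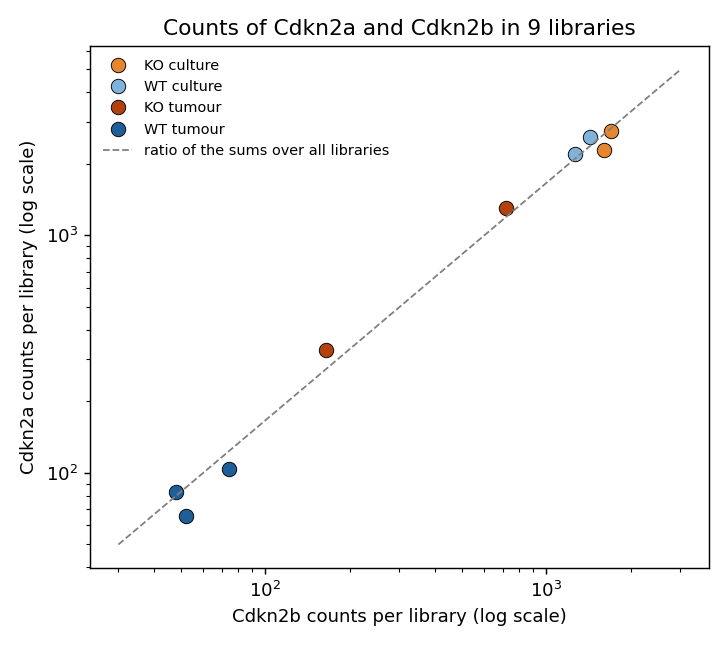
Counts of Cdkn2a (y axis, log scale) against counts of Cdkn2b (x axis, log scale) in the 9 libraries, with the ratio of the sums as a dashed line. WT tumours lie at 66 to 104 counts of Cdkn2a, the KO tumours at 1304 and 329, and the cultures at 2189 to 2740.

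The 2 KO tumours differed from each other more than either line's cultures did. KO tumour 1 had 4.28 times the Cdkn2a level and 4.71 times the Cdkn2b level of the other KO tumour, whose column is numbered 3. Of 22 kinase, cyclin and S phase genes with counts in both, 19 were higher in KO tumour 3. The other 3 (Ccne2, Cdk2 and Mcm6) were higher in KO tumour 1. Over all 22 genes the median ratio of KO tumour 3 to KO tumour 1 was 1.30. The share of all genes that lay higher in KO tumour 3 was not counted. The ratios of Mki67, Ccnb1 and Rrm2, named after their values were seen, were among the highest. Mki67, a marker of cycling cells, was at 115 CPM in KO tumour 1 and 434 in KO tumour 3, Ccnb1 at 29.9 and 95.6, and Rrm2 at 132 and 343. The leukocyte marker sum was 126 and 245 CPM in the same order. These values come from 1 library each, and their part in the Cdkn2a difference was not tested.

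Mtap, which cleaves methylthioadenosine for methionine salvage, overlapped between the lines in cultures and in tumours. It was at 293 and 331 CPM in KO cultures against 308 and 321 in WT cultures. It was at 137 and 81.2 CPM in KO tumours against 115, 97.4 and 145 in WT tumours. Its log2 fold change of KO over WT was -0.05 ± 0.16 in culture and -0.14 ± 0.27 in tumours, the tumour value lying between -0.58 (without KO tumour 1) and 0.22 (without KO tumour 3). Per Mtap count, Cdkn2a had 0.557 and 0.219 counts in KO tumours against 0.0352, 0.0341 and 0.0305 in WT tumours, and 0.449 to 0.529 in the 4 cultures. KO tumour 1 thus stood slightly above the cultures in this ratio, which does not depend on scaling.

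The share of its own culture level that each tumour retained was set beside that of epithelial genes. As a percentage of the mean of its own line's cultures, Cdkn2a was at 48.9% and 11.4% in KO tumours against 2.62%, 2.15% and 2.87% in WT tumours. Mtap was at 43.8% and 26.0% in KO tumours against 36.4%, 30.9% and 46.1% in WT tumours. Krt8 was at 105% and 86.6% in KO tumours against 48.4%, 41.8% and 35.5% in WT tumours, and Cdh1 was at 97.8% or more in all 5. Krt19 was at 134% and 94.6% in KO tumours against 46.1%, 37.6% and 38.7% in WT tumours, and Krt7 at 80.1% and 42.9% in KO tumours against 39.0%, 41.8% and 40.3% in WT tumours. Krt18 was at 49.5% and 42.5% in KO tumours against 41.2%, 42.2% and 29.8% in WT tumours, so in KO tumour 1 its share lay close to that of Cdkn2a. In WT tumours Cdkn2a and Cdkn2b therefore stood further below culture than these epithelial genes did.

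**Figure D3:**
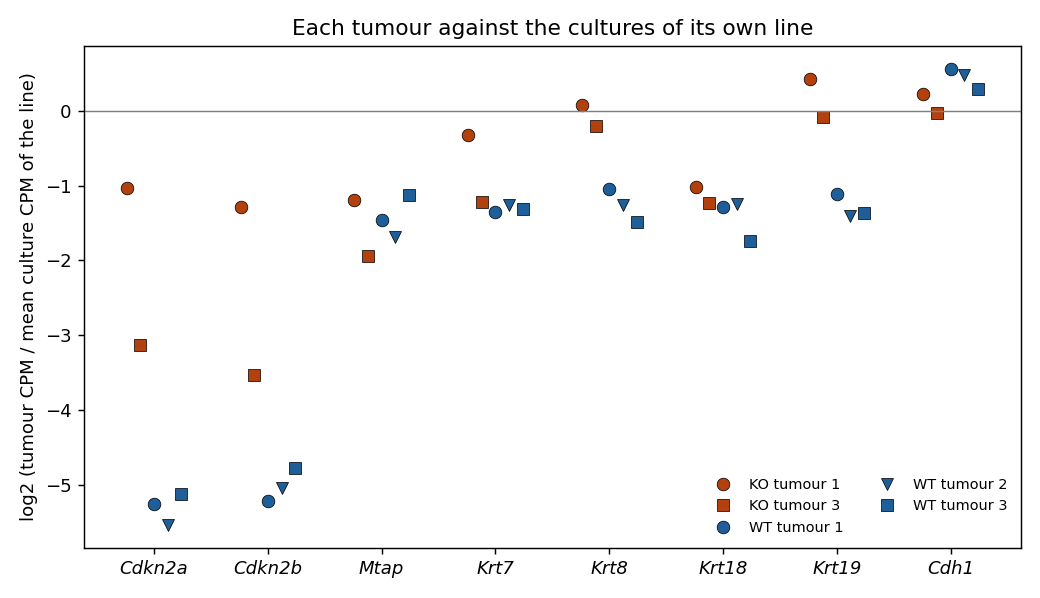
Log2 ratio of each tumour library to the mean of its own line's cultures (y axis) for Cdkn2a, Cdkn2b, Mtap, 4 keratins and Cdh1; orange symbols are KO tumours and blue symbols WT tumours. WT tumours lie between -5.54 and -4.78 for Cdkn2a and Cdkn2b and between -1.75 and -1.05 for Mtap and the keratins.

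Few other genes around the locus were expressed. Of 40 protein-coding genes within 1 Mb of Cdkn2a, 5 that are not described above reached a mean of 1 CPM in any group, and 16 interferon genes did not. Wincr1, a long noncoding RNA between Ifne and Mtap that was singled out after its values were seen, showed a pattern of the same kind. It was at 61.4 and 70.4 CPM in KO cultures against 69.5 and 99.9 in WT cultures, and at 15.4 and 13.9 CPM in KO tumours against 6.37, 5.43 and 6.17 in WT tumours. Its log2 fold change of KO over WT in tumours was 1.27 ± 0.20 (adjusted p = 0.00978), and over cultures the change was -2.17 ± 0.20 in KO tumours and -3.82 ± 0.18 in WT tumours. The KO over WT call in tumours was lost without WT tumour 2, at values from 1.19 to 1.38 over the libraries left out. Klhl9, a ubiquitin ligase adaptor, fell in the tumours of both lines, with log2 fold changes over cultures of -1.18 ± 0.19 in KO (adjusted p = 3.21e-04) and -1.60 ± 0.17 in WT (adjusted p = 1.68e-05). KO and WT did not pass the test for it in culture (adjusted p = 0.984) or in tumours (0.114). Focad passed in culture, at 47.9 and 34.2 CPM in KO against 21.9 and 16.8 in WT (log2 fold change 1.04 ± 0.22, adjusted p = 0.00347). Ifne fell in KO cultures, at 0.612 and 0.486 CPM against 6.45 and 7.18 in WT cultures (log2 fold change -3.64 ± 0.36, adjusted p = 1.35e-05), and Hacd4 fell there too, at 0.111 and 0.278 CPM in KO against 2.59 and 2.55 in WT (-3.77 ± 0.54, adjusted p = 2.63e-04), from 2 and 4 counts in the KO cultures.

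**Figure D4:**
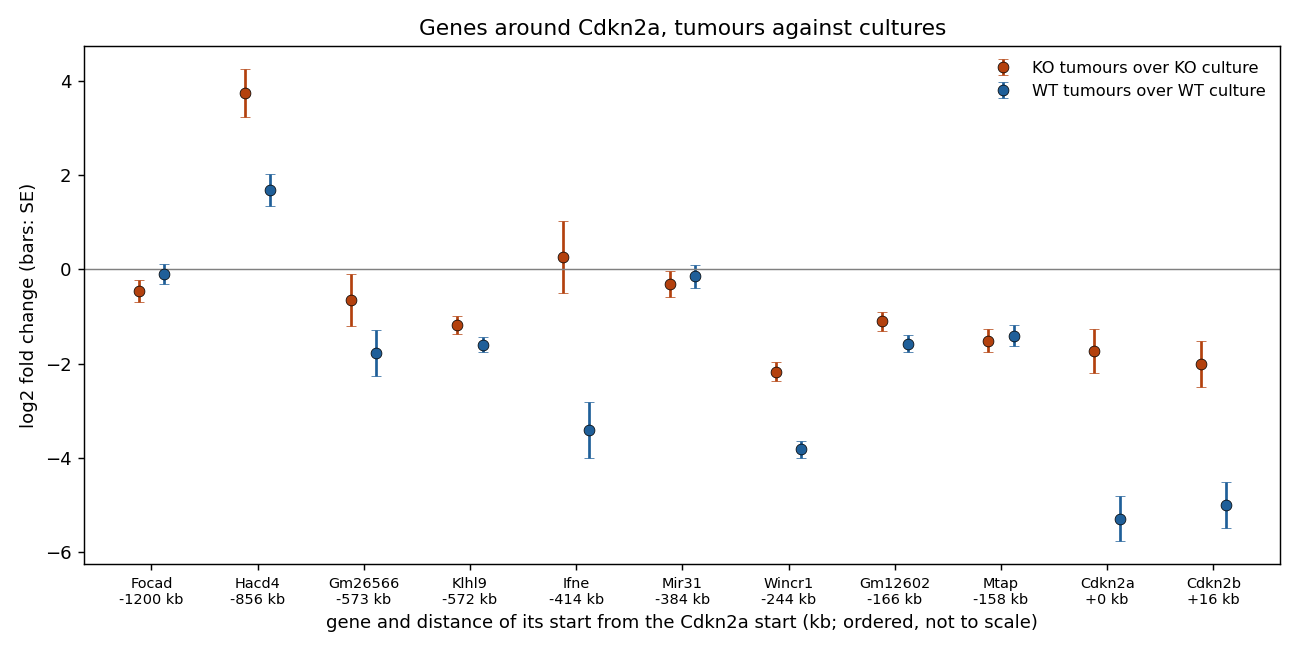
Log2 fold change of tumours over cultures (y axis, bars are SE) for genes around Cdkn2a, ordered along the chromosome with the distance of each start from the Cdkn2a start in kb; orange is KO and blue is WT. Cdkn2a, Cdkn2b and Wincr1 lie higher in KO than in WT, at -1.73, -2.02 and -2.17 against -5.29, -5.00 and -3.82, and Mtap lies at -1.52 in KO and -1.40 in WT.

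Cdkn2c, which encodes p18Ink4c, was the only one of the 8 genes that was higher in tumours than in cultures of both lines. It was at 25.8 and 41.6 CPM in KO tumours and 9.74 and 8.20 in KO cultures, and at 35.2, 36.1 and 43.3 CPM in WT tumours and 19.5 and 18.2 in WT cultures. KO cultures had the lowest values of all 9 libraries, and the tumours of both lines overlap. KO over WT, the log2 fold change was -1.11 ± 0.21 in culture and -0.20 ± 0.21 in tumours, and that of tumours over cultures was 1.91 ± 0.24 in KO and 1.02 ± 0.21 in WT. Cdkn2c also lies on chromosome 4 but far from Cdkn2a.

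Cdkn2d, which encodes p19Ink4d, a protein distinct from p19Arf, had its highest values in WT cultures. It was at 19.5 and 23.1 CPM in KO cultures against 41.9 and 52.5 in WT cultures, without overlap. It was at 18.5 and 33.8 CPM in KO tumours against 23.0, 22.3 and 26.5 in WT tumours, where the KO libraries lie on both sides of the WT ones. KO over WT, its log2 fold change was -1.19 ± 0.19 in culture and 0.11 ± 0.25 in tumours, with 0.47 without KO tumour 1 and -0.36 without KO tumour 3. Against cultures, KO tumours lay on both sides of their cultures (0.30 ± 0.25), while WT tumours lay below theirs (-0.98 ± 0.22).

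Cdkn1a, which encodes p21, the best known target of p53, differed in opposite directions in the 2 settings. It was at 52.0 and 51.3 CPM in KO cultures against 69.6 and 63.2 in WT cultures, and at 45.8 and 39.9 CPM in KO tumours against 37.5, 33.0 and 22.4 in WT tumours. KO lay below WT in culture and above it in tumours, with no overlap in either. Of all genes tested, 62% did not overlap in culture and 53.7% in tumours. KO over WT, the log2 fold change of Cdkn1a was -0.41 ± 0.16 in culture and 0.45 ± 0.23 in tumours. The tumour value lay between 0.24 and 0.59 over the libraries left out. Against cultures, Cdkn1a had a log2 fold change of -0.27 ± 0.21 in KO tumours and of -1.10 ± 0.19 in WT tumours. The KO value turned to 0.16 when libraries were scaled by their totals, so it has no stable direction.

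Cdkn1b, which encodes p27, had the highest level per kilobase of the CIP/KIP genes in every group and overlapped between the lines. It was at 240.2 and 299 CPM in KO cultures against 237 and 286 in WT cultures, and at 138 and 195 CPM in KO tumours against 155, 150.0 and 122 in WT tumours. Over WT, the KO log2 fold change was 0.00 ± 0.17 in culture and 0.20 ± 0.18 in tumours. Over their cultures, it was -0.70 ± 0.20 in KO tumours and -0.88 ± 0.18 in WT tumours. Under other processing choices these values reached -0.25 in KO tumours and -0.40 in WT tumours. Cdkn1c, an imprinted gene that encodes p57, had the lowest level of the 3. It was at 1.22 and 2.78 CPM in KO cultures against 5.94 and 6.99 in WT cultures, and at 3.51 and 2.54 CPM in KO tumours against 4.77, 4.27 and 4.26 in WT tumours. Every KO library lay below the WT libraries of its setting, with log2 fold changes of -1.76 ± 0.36 in culture, from 22 and 40 counts in KO, and -0.57 ± 0.30 in tumours. The culture value was -2.43 without KO culture 2 and -1.25 without KO culture 1.

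Per kilobase of exon, the order of the inhibitors differed between cultures and WT tumours. In KO cultures Cdkn2a had 133 CPM per kb, Cdkn2b 74.0, Cdkn1b 59.2, Cdkn1a 14.5, Cdkn2d 13.6, Cdkn2c 3.34 and Cdkn1c 0.982. In WT tumours the order was Cdkn1b with 31.3, Cdkn2d with 15.2, Cdkn2c with 14.2, Cdkn1a with 8.72, Cdkn2a with 3.35, Cdkn1c with 2.17 and Cdkn2b with 1.94 CPM per kb. Cdkn2a and Cdkn2b, first in culture, were thus below Cdkn1b, Cdkn2d, Cdkn2c and Cdkn1a in WT tumours. In KO tumours Cdkn2a averaged 40.1 CPM per kb beside 36.5 for Cdkn1b, but its CPM averaged 47.0 ± 41.3 (SD, n = 2), so the 2 genes do not differ beyond the spread there. Neither do Cdkn2d and Cdkn2c or Cdkn1c and Cdkn2b in WT tumours, nor Cdkn1a and Cdkn2d in KO cultures.

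All 8 genes passed the filter on low counts in every comparison. In culture 1 of the 8 (Cdkn2b) had both KO libraries above both WT libraries and 4 (Cdkn2c, Cdkn2d, Cdkn1a, Cdkn1c) had both below. Of all genes tested, 62% did not overlap between KO and WT in culture, 32.7% higher and 29.2% lower. In tumours 3 (Cdkn2a, Cdkn2b, Cdkn1a) had both KO libraries above all WT libraries and 1 (Cdkn1c) had both below, where 53.7% of all genes did not overlap, 27.3% higher and 26.4% lower. In KO tumours against KO cultures 1 gene (Cdkn2c) was higher and 5 were lower without overlap. Of all genes, 78.9% did not overlap, 43.4% higher and 35.5% lower. With library totals in place of TMM, 4 of the 8 (Cdkn2c, Cdkn2d, Cdkn1a, Cdkn1c) were higher and 3 (Cdkn2a, Cdkn2b, Mtap) lower. In WT tumours against WT cultures 1 (Cdkn2c) was higher and 7 were lower, where 81.5% did not overlap, 44.8% higher and 36.6% lower. There library totals gave 1 higher and 6 lower. Since these levels chose the genes, nothing is read from the counts.

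Downstream of the inhibitors, most S phase genes fell in KO cultures and some of them in KO tumours. In culture 11 of 15 S phase genes under E2F control fell and none rose, where 25.5% of all genes tested passed the test, 16.2% lower and 9.27% higher. Their median log2 fold change was -0.70 against -0.00030 over all genes tested. Tk1, the thymidine salvage kinase, was at 44.9 and 42.9 CPM in KO cultures against 110.0 and 135 in WT cultures (log2 fold change -1.52 ± 0.17, adjusted p = 3.16e-05). Rrm2, the small subunit of ribonucleotide reductase, was at 160.0 and 186 CPM in KO cultures against 451 and 499 in WT cultures (-1.50 ± 0.17, adjusted p = 3.24e-05). The replication licensing factor Cdc6 (-1.24 ± 0.21, adjusted p = 7.24e-04) and the helicase subunit Mcm4 (-0.78 ± 0.16, adjusted p = 0.00353) fell as well. With 1 culture left out at a time, 7 or 8 of the 15 genes fell.

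In tumours 6 of the same 15 genes fell and none rose, where 19.7% of all genes passed, 10.9% lower and 8.78% higher. They were Cdt1, Mcm4, Cdc6, Mcm7, Mcm3 and Tk1, and the median of the list was -0.50 against -0.0056 over all genes. Cdt1, a licensing factor, was at 32.6 and 40.9 CPM in KO tumours against 73.9, 74.5 and 73.3 in WT tumours (log2 fold change -1.03 ± 0.13, adjusted p = 0.00493). The count depends on the libraries: without KO tumour 1 it was 1 lower and 1 higher, without KO tumour 3 it was 8 lower, without WT tumour 1 or 2 it was 2 lower each, and without WT tumour 3 it was 4 lower. Cdt1 itself passed in each of these fits. The difference of the KO effects between tumours and culture passed for none of the 15 by edgeR's quasi-likelihood test, where 5.69% of all genes did, 4.15% higher and 1.54% lower.

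**Figure D5:**
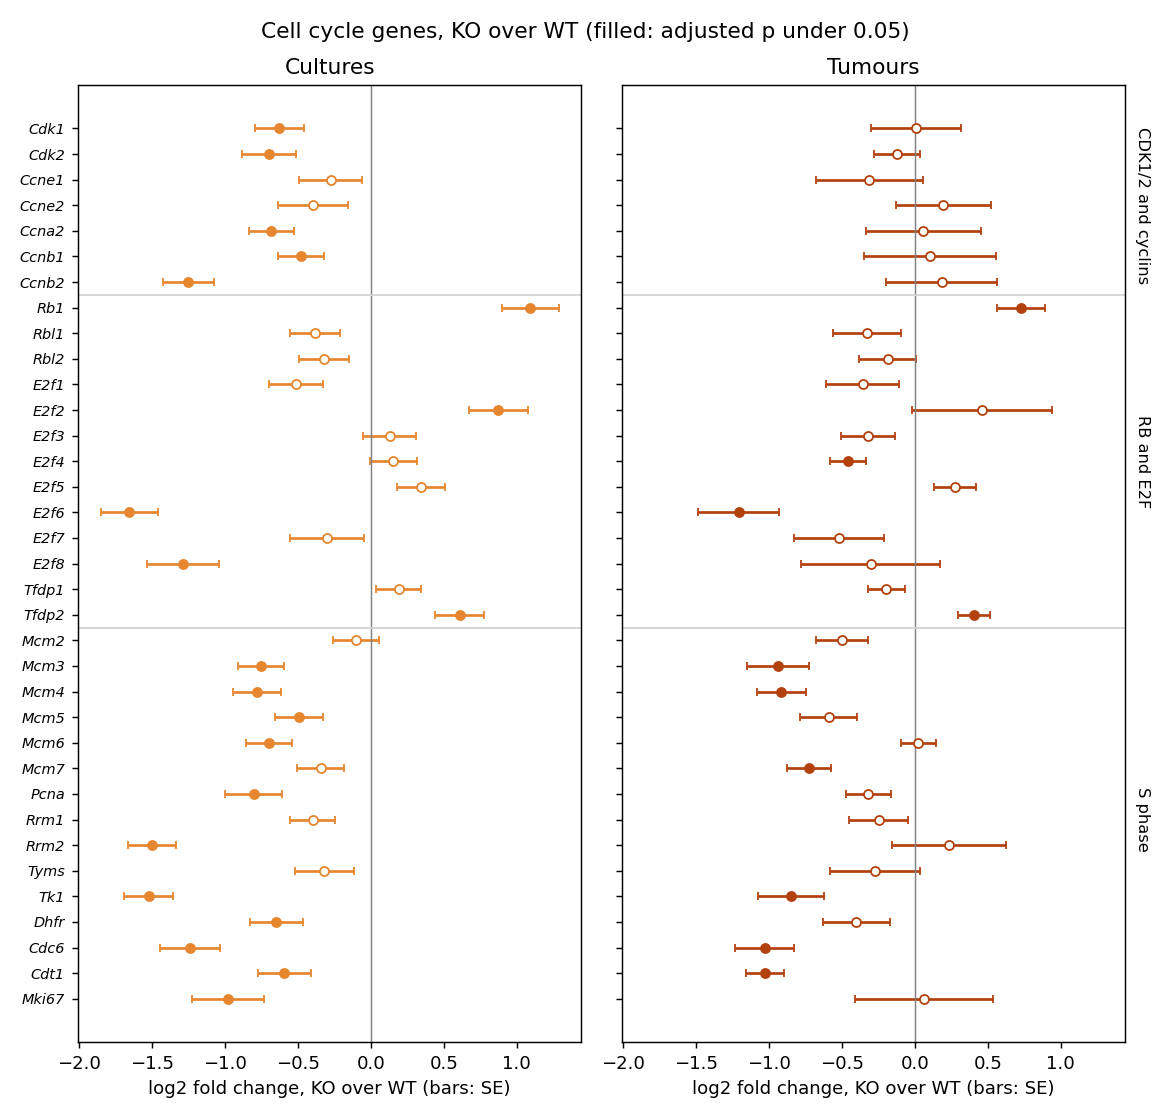
Log2 fold change of KO over WT (x axis, bars are SE) in cultures (left) and tumours (right) for CDK1, CDK2 and their cyclins, the RB and E2F family and S phase genes; filled points passed the test at an adjusted p of 0.05. In culture 5 of 7 kinase and cyclin genes and 11 of 15 S phase genes are filled on the lower side. Ccna1, with at most 1 count in any culture, is not drawn.

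Among the kinases and cyclins that the inhibitors bind, 5 of 7 partners of the CIP/KIP proteins fell in KO cultures: Ccnb2 (log2 fold change -1.25 ± 0.17, adjusted p = 2.09e-04), Ccna2, Cdk1, Cdk2 and Ccnb1. In tumours 1 of 8 fell, Ccna1, which had 0 counts in both KO tumours against 16, 6 and 12 in WT tumours. That call was lost without either KO tumour, and without WT tumour 1 or 3 the gene did not pass the filter. With 1 culture left out at a time 2 to 4 of the 7 fell in culture, and in 1 fit of all 9 libraries 2 of 8 fell. Of the 5 INK4 partners, Cdk4, Cdk6 and the D cyclins, 1 rose in culture and none passed in tumours. That 1 was Ccnd2, at 532 and 503 CPM in KO cultures against 288 and 227 in WT cultures (0.96 ± 0.18, adjusted p = 0.00152). Over all genes tested, 9.27% rose and 16.2% fell in culture, and 8.78% rose and 10.9% fell in tumours.

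In the RB and E2F family, 3 of 13 genes rose and 2 fell in KO cultures, and 2 rose and 2 fell in tumours. The shares over all genes tested were 9.27% higher and 16.2% lower in culture, and 8.78% higher and 10.9% lower in tumours. With 1 library left out 1 (without WT culture 2) or 2 rose in culture. In tumours none rose without either KO tumour or with library totals, and none rose or fell without WT tumour 1 or WT tumour 2. Rb1, the pocket protein that the INK4 inhibitors keep active, was at 55.9 and 46.6 CPM in KO cultures against 26.3 and 20.4 in WT cultures (log2 fold change 1.09 ± 0.19, adjusted p = 0.00124). It was at 37.8 and 41.0 CPM in KO tumours against 21.01, 21.4 and 28.1 in WT tumours (0.73 ± 0.16, adjusted p = 0.0265). E2f6, a repressor of E2F targets, fell in both settings, with log2 fold changes of -1.66 ± 0.20 in culture (adjusted p = 5.37e-05) and -1.21 ± 0.28 in tumours (adjusted p = 0.0282). Both tumour calls were lost without WT tumour 1 or WT tumour 2, and that of Rb1 also without either KO tumour. Over the libraries left out the values lay between 0.64 and 0.85 for Rb1 and between -1.72 and -0.81 for E2f6.

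On the p53 axis, through which p19Arf acts and which controls Cdkn1a, 4 of 17 genes rose and none fell in KO cultures. Of all genes tested, 9.27% rose and 16.2% fell in culture, and 8.78% rose and 10.9% fell in tumours. In KO tumours 5 of 18 rose and 1 fell, but with 1 library left out 1 to 6 rose, the fewest without KO tumour 1 or WT tumour 1. Bbc3, which encodes the death factor PUMA, rose in both: it was at 37.6 and 31.8 CPM in KO cultures against 13.1 and 17.4 in WT cultures (log2 fold change 1.15 ± 0.20, adjusted p = 0.00111), and at 16.3 and 14.5 CPM in KO tumours against 8.51, 6.74 and 7.11 in WT tumours (1.03 ± 0.21, adjusted p = 0.0183). The tumour call of Bbc3 was lost without KO tumour 1, WT tumour 1 or WT tumour 2, at values from 0.94 to 1.14. Fas, the death receptor, was at 6.84 and 11.4 CPM in KO tumours against 1.51, 2.31 and 2.43 in WT tumours (2.11 ± 0.35, adjusted p = 0.0105). The call of Fas held with each library left out. Btg2, an antiproliferative p53 target, was at 75.7 and 50.3 CPM in KO tumours against 25.2, 29.3 and 19.1 in WT tumours (1.35 ± 0.24, adjusted p = 0.0138), and Trp53inp1, a stress response gene, was at 59.5 and 45.0 CPM in KO tumours against 26.1, 27.6 and 19.8 in WT tumours (1.08 ± 0.20, adjusted p = 0.0148). The calls of Btg2 and Trp53inp1 were lost without KO tumour 1 or WT tumour 1, at values from 1.01 to 1.64 and from 0.85 to 1.29 over the libraries left out. Leukocytes express Fas too, the leukocyte marker sums stand above, and their part in the Fas difference was not tested. Trp53 itself, named after its values were seen, was at 2.36 to 3.78 CPM in the cultures and 5.93 to 11.7 CPM in the tumours. Most of the list did not pass, 13 of 17 genes in culture and 12 of 18 in tumours. Mdm2 and Bax, named after their values were seen, were among these. Their log2 fold changes of KO over WT were 0.09 ± 0.16 and -0.20 ± 0.17 in culture. In tumours they were 0.13 ± 0.12 and 0.17 ± 0.19.

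Among 18 regulators of the Cdkn2a locus, 2 of 16 tested rose and none fell in KO cultures. In KO tumours 2 of 18 rose and 2 fell. The shares over all genes tested were 9.27% higher and 16.2% lower in culture, and 8.78% higher and 10.9% lower in tumours. The tumour counts ran between 0 in either direction (without WT tumour 1) and 2 higher and 6 lower (without KO tumour 3). The culture count was 1 without KO culture 1 or WT culture 2, with library totals and with no filter. Jund, an AP-1 transcription factor, was at 415 and 265 CPM in KO cultures against 156 and 149.8 in WT cultures (log2 fold change 1.11 ± 0.20, adjusted p = 0.00157), and its call held with each culture left out. Suz12, a core subunit of Polycomb repressive complex PRC2, fell in KO tumours, at 75.4 and 99.8 CPM against 125, 127 and 145 in WT tumours (-0.62 ± 0.15, adjusted p = 0.0346). Its call was lost without KO tumour 1 or any 1 WT tumour, at values from -0.80 to -0.43. Bmi1, a Polycomb protein known to repress the locus, was at 102 and 114 CPM in KO cultures against 73.7 and 78.1 in WT cultures, and at 105 and 110 CPM in KO tumours against 76.1, 80.9 and 74.7 in WT tumours. Its log2 fold change was 0.46 ± 0.16 in culture (adjusted p = 0.0450) and 0.46 ± 0.11 in tumours (adjusted p = 0.0296). Both calls lie near the threshold and were lost without any 1 culture, without KO tumour 1 and without any 1 WT tumour, at values from 0.39 to 0.54 in culture and 0.41 to 0.48 in tumours. Tbx3, another repressor of the locus, had no count in any culture, and 13 and 15 counts in KO tumours against 76, 58 and 72 in WT tumours (log2 fold change of KO over WT -2.05 ± 0.35, adjusted p = 0.0113). The call was lost without WT tumour 1, at values from -2.13 to -1.95 over the libraries left out. The fibroblast marker sums given above were also lower in KO tumours than in WT tumours. The part of host cells in the Tbx3 difference was not tested. Id1 rose in KO tumours, at 53.2 and 58.0 CPM against 24.3, 23.5 and 33.1 in WT tumours (1.02 ± 0.17, adjusted p = 0.0114), but not without WT tumour 1 or WT tumour 2, at values from 0.93 to 1.18.

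Among 11 transcription factors that act on Cdkn1a, Cdkn1b or Cdkn2b, Klf4, an activator of Cdkn1a, rose in both settings. It was at 244 and 201 CPM in KO cultures against 94.0 and 80.4 in WT cultures (log2 fold change 1.31 ± 0.17, adjusted p = 1.25e-04), and at 322 and 227 CPM in KO tumours against 108, 92.9 and 93.8 in WT tumours (1.46 ± 0.18, adjusted p = 0.00451). Both calls held with each library left out. Klf6, another activator of Cdkn1a, passed in tumours, at 378 and 317 CPM in KO against 187, 165 and 185 in WT (0.94 ± 0.13, adjusted p = 0.00696), also with each library left out. In culture 3 of the 11 rose and none fell, but 1 rose without KO culture 1, without WT culture 2 or with library totals. In tumours 2 rose and 1 fell, and none fell without KO tumour 1, WT tumour 1 or WT tumour 2. Of 9 genes of the ubiquitin ligases that degrade CIP/KIP proteins, 3 rose and 3 fell in culture, and 1 rose and 2 fell in tumours. With any 1 culture left out 0 or 1 rose and 2 or 3 fell. In tumours none rose without KO tumour 1 or any 1 WT tumour, 3 rose without KO tumour 3, and 1 fell without any 1 WT tumour. Skp2, the receptor that targets p27, fell in KO tumours, at 10.6 and 11.5 CPM against 23.6, 23.1 and 30.7 in WT tumours (-1.25 ± 0.19, adjusted p = 0.00811). Its cofactor Cks1b fell in KO cultures, at 82.6 and 92.2 CPM against 163 and 205 CPM in WT cultures (-1.11 ± 0.17, adjusted p = 3.58e-04). Beside both of these lists, 9.27% of all genes tested rose and 16.2% fell in culture. In tumours 8.78% of all genes rose and 10.9% fell.

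Around Mtap, 3 of 10 genes of methionine salvage and its users rose in KO cultures. In KO tumours 1 (Adi1) rose, and none fell in either setting. Of all genes tested, 9.27% rose and 16.2% fell in culture, and 8.78% rose and 10.9% fell in tumours. The culture count was 1 without KO culture 1 or WT culture 2 and 0 without KO culture 2 or WT culture 1. The Adi1 call in tumours (log2 fold change 0.66 ± 0.12, adjusted p = 0.0140) was lost without WT tumour 1 or WT tumour 2, at values from 0.59 to 0.74. Against cultures 10 of 10 fell in KO tumours, where 59.3% of all genes passed, 32.9% higher and 26.4% lower. In WT tumours 9 of 10 fell, where 65.7% of all genes passed, 36.1% higher and 29.6% lower. The median log2 fold change of the list was -1.30 in KO tumours and -1.01 in WT tumours, against 0.17 over all genes in each. Adi1, a late enzyme of the salvage cycle, was at 82.8 and 77.3 CPM in KO tumours and 275 and 302 in KO cultures, and 50.7, 53.04 and 46.2 CPM in WT tumours and 194 and 211 in WT cultures. In the S phase list 2 of 15 rose and 4 fell in KO tumours against KO cultures, and 2 rose and 5 fell in WT tumours against WT cultures.

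The genes whose levels ran most like those of Cdkn2a over the 9 libraries, by Pearson correlation of log2(CPM + 1) among 11274 genes with a group mean of at least 5 CPM, were Anxa5 (r = 0.996), Fam110c (0.993), Acads (0.993), Rab11a (0.991) and Chchd2 (0.990). Anxa5, the first of them, had a far narrower range than Cdkn2a: it was at 750.1 and 605 CPM in KO tumours against 439, 438 and 436 in WT tumours, and at 915 to 942 in the cultures. For Cdkn1a they were Dusp10 (0.971), Senp8 (0.962), Bmp2 (0.957), Alkbh6 (0.941) and Tmem71 (0.938). With a pseudocount of 0.1, 4 of the 5 genes for Cdkn2a and all 5 for Cdkn1a were the same, and by Spearman correlation 3 and 2 were. Cdkn2a ran with Cdkn1a (0.87), Mtap (0.83) and Cdkn1b (0.79) and opposite to Cdkn2c (-0.83), and hardly with Cdkn2d (0.27) or Cdkn1c (-0.15). The libraries share their setting, so these values mostly order tumours against cultures.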

How the data were processed

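RNA counts of 9 libraries were analysed. The 2 deposited count tables, 1 for cultures and 1 for tumours, hold raw counts per Ensembl gene made by the authors. The submitters' processing notes name STAR 2.5.2b, fastp 0.23.1, Subread 1.5.2, featureCounts, DESeq2 and the build GRCm38 without saying how each was used. Per the labels' protocols, poly(A) libraries carried ERCC controls and molecular identifiers by which duplicates were removed. The sources used here give no strand setting, annotation or handling of multi-mapping reads, and reads from overlapping genes cannot be told apart. The deposited signal values (counts divided by a size factor) and log2 values (rlog) were made by the authors and enter no result. The KO tumour columns are numbered 1 and 3 but the labels 1 and 2, so the second was assigned to its group only.

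Symbols came from GENCODE M21 (49412 of 49671 genes matched). The filterByExpr function kept genes (count 10, total 15), libraries were scaled by TMM, and all genes were tested with the quasi-likelihood test of edgeR 4.0.16 (R 4.3.3, prior count 0.125) with Benjamini-Hochberg adjusted p and a threshold of 0.05. KO was compared with WT within each setting, and the difference of these effects and tumours against cultures came from 1 fit of the 9 libraries. The SE is the absolute log2 fold change over the square root of F. Levels in CPM use 1 TMM scale, so folds, which come from the fits, can differ slightly from ratios of means, and CPM per kb uses the summed exon length. The fit was run on simulated counts with known folds. That run checked the folds of raised genes and the recovery of changed genes, and set no limit on false calls. Alternatives were RLE or total scaling, other filters, a prior count of 2, DESeq2 1.42.0, limma-voom (limma 3.58.1), 1 fit of all libraries, the replicate block and each library left out. The members and gene lists were chosen with earlier results of these data known. The naming rule allows up to 6 genes with the smallest p from each list, beside Itga2, expressed protein-coding neighbours and the 5 genes most like Cdkn2a and Cdkn1a. The labels call the replicates biological but name no animals, so p-values measure the spread between these libraries, and counting intervals cover counting error only.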

Additional observations from a re-analysis of the deposited data

Results flagged for a closer look

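Cdkn1a drew attention because both KO cultures lay below the WT cultures while both KO tumours lay above all WT tumours. The KO effect in tumours minus that in culture was 0.83 on the log2 scale, from 0.45 in tumours and -0.41 in culture. The difference was not tested, since the gene was chosen for its levels. KO and WT did not overlap for 62% of all genes tested in culture and for 53.7% in tumours.

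For 5 other genes, Wincr1 and genes of the lists without the markers, the test of the difference between the KO effects itself passed. Over all genes tested, 5.69% passed this quasi-likelihood test, 4.15% higher and 1.54% lower. It also passed for 3 of the 6 epithelial markers, all higher. Of the genes most like Cdkn2a it passed for Fam110c, at 1.31 (adjusted p = 0.00916). Kcnq1, a potassium channel gene of the imprinted domain that holds Cdkn1c, differed by 3.05 (adjusted p = 6.89e-04), with effects of -0.86 in tumours and -3.93 in culture. The noncoding gene Wincr1, singled out after its values were seen, differed by 1.65 (adjusted p = 0.00558), with 1.27 in tumours and -0.40 in culture. Gdf15, a p53 target and stress hormone, differed by -1.68 (adjusted p = 0.00646), and was at 1.40 and 1.78 CPM in KO tumours against 5.11, 4.83 and 3.75 in WT tumours. The differences of Kcnq1, Wincr1 and Gdf15 passed in each of 16 alternatives. Perp differed by 1.24 (adjusted p = 0.0442) and Id1 by 0.93 (adjusted p = 0.0472). The calls of Perp and Id1 were lost in 10 and 12 of the 16 alternatives, for both without any 1 culture, KO tumour 1, WT tumour 1 or WT tumour 2, at values from 0.85 to 1.56 for Perp and from 0.84 to 1.12 for Id1 over the libraries left out.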

How the results depend on the processing

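Over the alternatives, the log2 fold change of Cdkn2a in KO over WT tumours lay between 2.15 (without KO tumour 1) and 4.29 (without KO tumour 3), that of Cdkn2b between 1.70 and 3.97 for the same libraries, and that of Cdkn1a in culture between -0.48 and -0.32 with 1 library left out. The value of Cdkn1a in KO tumours over KO cultures turned to 0.16 with library totals, and the cause was not tested. Genes called in culture numbered 3461, and 2130 to 2985 with 1 library left out. In tumours they numbered 3206, and 1171 (without WT tumour 2) to 4143 (without KO tumour 3), with 1258 without WT tumour 1 and 1970 without KO tumour 1. For the difference of the effects they numbered 955, 1625 with DESeq2, 1875 with no filter, and 288 (without KO culture 1) to 1651 (without KO tumour 3). Library totals gave a median log2 fold change of all genes of 0.60 in KO and 0.64 in WT for tumours over cultures, against 0.17 in each with TMM. They gave 7659 higher and 2636 lower calls in KO, against 5519 and 4431 with TMM, and 8410 and 3154 in WT, against 6055 and 4977. Of 480 values of the 8 genes under the alternatives, 19 had the opposite sign to the value reported, among them 5 of 13 for Cdkn1b and 4 of 13 for Cdkn2a in culture. Of 1183 values of other genes that had passed the test in the main fit, 1025 kept their direction and call, 158 lost the call and 0 turned round. Named genes that had not passed are not in this count, nor are alternatives in which a gene was not tested. Where a library was left out of a pair, the lone library was assumed to vary like the other groups.

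With the replicate number as a block in culture, 7587 genes were called. Same-numbered cultures deviated together with a correlation of 0.50 over only 2 pairs, and the labels tie the numbers to no shared culture or day. With that block the difference gave 1100 calls. No paired analysis was possible for tumours because the KO columns are numbered 1 and 3 and the labels 1 and 2. Levels near 0, such as Ccna1, Tbx3 and Hacd4, rest on few counts.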

Other observations

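Genes around Cdkn1c, in a domain where parental imprints set expression, differed between the lines one by one. In culture 2 of 6 fell and none rose, where 16.2% of all genes fell and 9.27% rose, and 1 fell without KO culture 1 or WT culture 2. In tumours 3 of 8 fell and 1 rose, where 10.9% of all genes fell and 8.78% rose, but none passed without KO tumour 1, WT tumour 1 or WT tumour 2. Kcnq1 was at 1.22 and 1.32 CPM in KO cultures against 18.8 in each WT culture (log2 fold change -3.93 ± 0.26, adjusted p = 6.06e-07), and at 43.2 and 57.3 CPM in KO tumours against 96.4, 95.2 and 77.3 in WT tumours (-0.86 ± 0.17, adjusted p = 0.0175). The tumour call was lost without KO tumour 1, WT tumour 1 or WT tumour 2, at values from -1.04 to -0.67. Kcnq1ot1, the noncoding RNA that silences the domain on one parental copy, had 28 and 76 counts in KO tumours against 149, 155 and 284 in WT tumours, and 0 counts in both KO cultures against 4 and 3 in WT cultures. It is antisense to Kcnq1, and without a stated strand setting their reads cannot be told apart.

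Ptprc, a pan-leukocyte gene named after its values were seen, was at 8.51 and 10.1 CPM in KO cultures against 2.47 and 3.07 in WT cultures (log2 fold change 1.71 ± 0.27, adjusted p = 5.30e-04), while 5 of the 10 leukocyte markers were at 0 in both KO cultures and 6 in both WT cultures. The noncoding gene Gm12602, near Cdkn2a and also named after its values were seen, was at 12.9 and 10.6 CPM in KO tumours against 9.29, 9.20 and 11.2 in WT tumours, and at 25.1 to 33.1 CPM in the cultures.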
